A study of Mus musculus with 12 samples.

Results

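The mitochondrial respiratory chain and the ATP synthase were followed through their nuclear-encoded genes in mouse colon. Members were chosen by name: probe sets that carry a single gene symbol starting with Nduf, Uqcr, Atp5 or Cox4 to Cox8, together with Sdha, Sdhb, Sdhc, Sdhd, Cycs and Cyc1. This rule found 160 probe sets for 86 genes, of 12393 genes with a single symbol on the array, and used no measured difference. Each gene was read at its brightest probe set, the one of highest mean signal over all arrays, and no filter on low signal was set. By role the 86 genes were 6 core subunits of complex I, 27 accessory subunits of complex I, 5 of its assembly factors, 4 subunits of complex II, 9 of complex III, cytochrome c, 16 subunits of complex IV, the supercomplex factor Cox7a2l and 17 subunits of the ATP synthase. Another 8 probe sets that name a member together with a second gene were left out, and subunits encoded by mitochondrial DNA were not analysed here.

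The study compared a diet with quercetin, a plant flavonol, between C57BL/6 wild-type (WT) mice and mice null for cytochrome P450 reductase (POR-null), the enzyme that passes electrons from NADPH to microsomal cytochromes P450. All mice were male, 6 to 8 weeks old, and were fed a soya-free powdered RM3 diet for 14 days. On day 15 the quercetin groups of either genotype received this diet with 6200 ppm quercetin, given in the labels as 7 mg per mouse, while the control groups stayed on the plain diet, and all were killed after 24 h. Each of the 4 groups (WT control, WT quercetin, POR-null control, POR-null quercetin) had 3 Affymetrix 430A arrays, each hybridised with RNA scraped from the colon epithelium and pooled from 3 mice, so that a group stands for 9 mice. A replicate is therefore a pool, and single mice cannot be seen. The labels do not name a promoter or tissue for the deletion; in a widely used line of this kind the reductase is deleted in liver cells, and the deleted gene itself was not analysed here. In such pooled tissue, fewer cells of a type and less RNA per cell cannot be told apart.

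As background, complexes I and II pass electrons from NADH and succinate to ubiquinone, complex III passes them on to cytochrome c, and complex IV, cytochrome c oxidase, hands them to oxygen. Complexes I, III and IV pump protons across the inner mitochondrial membrane, and the ATP synthase uses the resulting gradient to make ATP. Colonocytes depend on this chain to burn butyrate made by gut bacteria. Many of its nuclear genes are known targets of nuclear respiratory factor 1 (NRF1) and of ETS factors such as GABP.

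Sequences upstream of the genes were read as a description. Any link of these letters to the members' movement over the arrays, described further on, was not tested. RefSeq promoter windows (GRCm38.p6, 250 bases before the gene start and a short stretch after it) were matched for 71 of the 86 members and for 9883 genes on the array. The NRF1 letters, searched on both strands as GCGCAN followed directly by GCGC, were present in 16 of the 71 windows (22.5%), against 9.36% of the array genes. The ETS and GABP letters CCGGAAG were found in 18 windows (25.4%), against 16.4% of array genes, and 4 members (5.63%) had both, against 2.11%. The YY1 letters AAGATGGCG were present in 6 windows (8.45%, against 2.82%), the ERR letters TCAAGGTCA in 2 (2.82%, against 0.344%), and CCAAT, a general promoter element, in 29 (40.8%, against 42.3%). A match is a description of letters and not a binding site. The following 80-base stretches, all before the gene start and written 5′ to 3′ on the gene's strand, are shown for 3 members whose values are described below and for 2 subunits of complex II. Capitals mark the NRF1 letters and, in Sdhd, also the reverse complement of CCGGAAG. They lie on the minus strand at chr5:115349076-115349155 (Cox6a1), chr5:108434405-108434484 (Atp5k), chr15:102671048-102671127 (Atp5g2), chr9:50603884-50603963 (Sdhd) and chr13:74350294-74350373 (Sdha).
Cox6a1: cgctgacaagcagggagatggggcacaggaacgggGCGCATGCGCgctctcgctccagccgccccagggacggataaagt
Atp5k: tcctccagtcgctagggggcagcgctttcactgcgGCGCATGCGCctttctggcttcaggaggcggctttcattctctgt
Atp5g2: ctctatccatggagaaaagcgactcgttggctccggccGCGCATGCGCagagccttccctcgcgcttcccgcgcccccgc
Sdhd: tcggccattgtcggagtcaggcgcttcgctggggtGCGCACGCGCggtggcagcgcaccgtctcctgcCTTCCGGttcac
Sdha: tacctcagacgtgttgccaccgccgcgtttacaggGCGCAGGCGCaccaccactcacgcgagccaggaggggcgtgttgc
Cox6a1, Atp5k and Atp5g2 carry the same 10 letters in capitals, while Sdhd and Sdha differ from them at the free base in the middle.

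Values are deposited signals on a scale taken to be log2, and a difference of 1 would be a 2-fold change. The 12 arrays were alike as wholes: their medians ran from 5.90 to 5.98, and Pearson's r across probe sets was 0.985 to 0.995 within groups and 0.981 to 0.993 between groups. Markers of colon epithelium were bright on every array, with the mean of 8 colonocyte genes such as Car1, Slc26a3 and Krt20 between 11.49 and 11.91. Markers of other cells were not even. Smooth muscle genes averaged 6.01 to 6.20 in the WT control arrays, 6.31 to 9.35 in WT quercetin, 6.26 to 7.68 in POR-null control and 7.24 to 7.62 in POR-null quercetin. MHC class II genes averaged 6.52 to 8.16, 7.81 to 9.13, 7.85 to 8.80 and 7.54 to 7.88 in the same order. Pancreatic acinar genes stood at 9.19 in WT control pool 1 and 10.22 in POR-null quercetin pool 2, against 6.10 to 7.72 in the other arrays. The part of these cells in the differences below was not tested beyond the comparisons without those 2 arrays.

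The members were among the bright probe sets of the array. Their mean signals ran from 4.74 to 12.70 with a median of 10.07, 74 of 86 lay above the upper quartile (7.27 to 7.34) of every array, and 3 lay below the median of every array. The 3 highest were Uqcrb, a small subunit of complex III (12.57 to 12.89 over the 12 arrays), Cox5b, a nuclear subunit of complex IV (12.25 to 12.57), and Cox6a1, the widely expressed form of subunit VIa (12.26 to 12.70). The 3 lowest were Cox6b2, a testis form (4.58 to 4.96), Cox7c (4.56 to 5.10) and Cox8b, a muscle form (5.28 to 5.77). Probe sets differ in how well they bind, so these ranks are not an order of transcript amounts; Cox7c, a core component of the enzyme in all tissues, was read by a pair of probe sets with means of 4.91 and 3.38. The median SD of a member within groups was 0.124 (range 0.059 to 0.24). The median size of the members' differences was 0.075 for quercetin in WT mice and 0.093 between genotypes on the control diet. A difference compares means of 3 arrays, so it is read against its SE, with a median of 0.104, and not against this SD. The 5 members of largest SD were Ndufa4 (0.24), Ndufaf5 (0.202), Uqcrq (0.201), Ndufb10 (0.197) and Cox7a1 (0.196).

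No member passed the test in any of the 4 simple comparisons or in the interaction and the averages: with limma, 0 of 86 passed an adjusted p of 0.05 in each, and 0 of the 22626 probe sets tested did (0%). The smallest adjusted p among the members was 0.952 for quercetin in WT mice, 0.710 for POR-null against WT on the control diet, and 0.998 to 1.00 in the others. The precision can be read from the 95% intervals, which reached a median of 0.22 to either side in the 4 simple comparisons. The largest fold inside the interval of any member was 1.48 for quercetin in WT mice, 1.44 in POR-null mice, 1.5 between genotypes on the control diet and 1.45 on quercetin. A 2-fold difference in signal was thus outside the interval of every member in these comparisons. For dim members such as Cox6b2 and Cox7c this does not bound a change in transcript, since background can hide one.

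**Figure D1:**
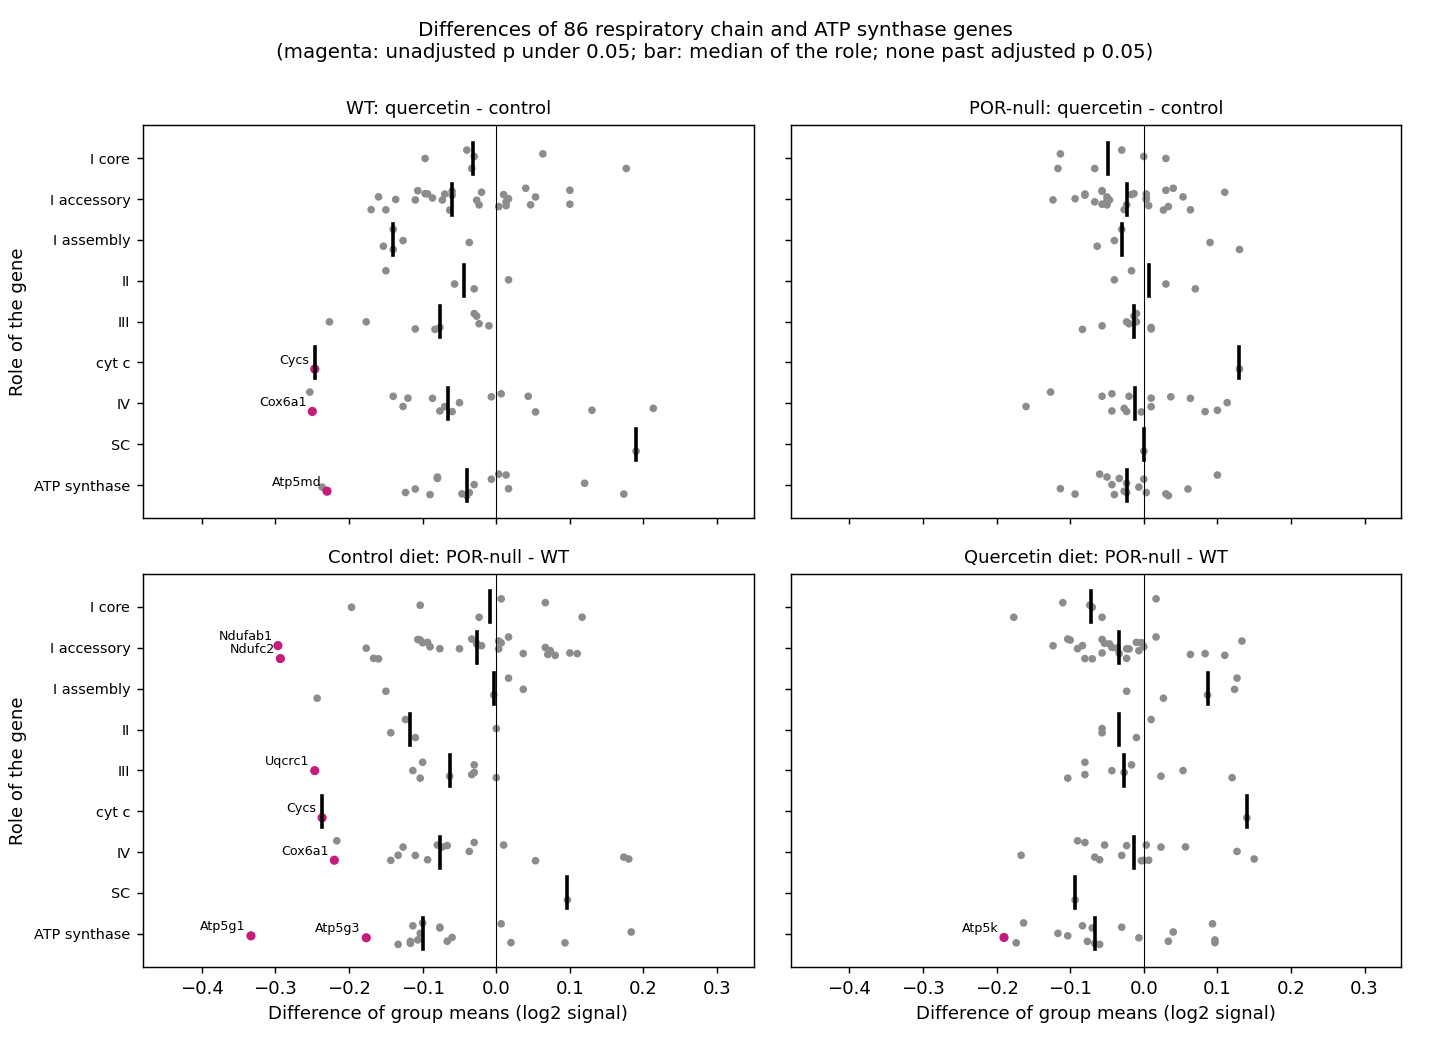
Difference of group means in log2 signal (x axis) for each of the 86 genes (points), grouped by role (y axis; SC is Cox7a2l), in the 4 simple comparisons. Magenta points have an unadjusted p under 0.05 and black bars are role medians; all points lie between -0.33 and 0.21, and most lie left of 0 in every panel.

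In WT mice given quercetin most members were slightly lower than in WT controls, but none past the threshold. Of the 86 genes 62 were lower and 24 higher, with a median difference of -0.05, against 48.8% of all probe sets below 0 and a median of 0.00 over them. At an unadjusted p under 0.05 there were 3 members, all lower: Cox6a1, Cycs and Atp5md. That is 3.49% of the members, against 5.15% of all probe sets in either direction and 1.94% in the lower direction. The groups did not overlap for 8 members (9.30%, against 9.31% of all probe sets): Atp5d, Ndufs8, Cox7a2l and Cox7c were higher, and Atp5g3, Ndufs4, Ndufc2 and Atp5md lower. All 5 assembly factors of complex I and all 9 subunits of complex III had differences below 0, with medians of -0.14 and -0.08. The count of lower members was 47 without WT control pool 2 and 69 without WT control pool 1, with medians of -0.02 and -0.11, so that 1 library moved the median by more than 1.5 times. Under an unadjusted p of 0.05 there was then 1 member, higher in quercetin, without pool 2 (1.16%, against 3.64% of all probe sets), and there were 10, all lower, without pool 1 (11.6%, against 8.58%).

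Quercetin in POR-null mice gave smaller differences. Of the 86 genes 52 were lower, 31 higher and 3 equal, with a median of -0.02, against 46.8% of all probe sets below 0. None had an unadjusted p under 0.05 (2.82% of all probe sets did), and in none did the groups fail to overlap (6.75%). The largest gaps were Ndufa4 at -0.16 and Cycs at 0.13, and the 5 members of smallest p were Atp5k, Cycs, Ndufa3, Cox6b2 and Ndufs8. Leaving out POR-null control pool 3 gave 67 lower members, and leaving out POR-null quercetin pool 3 gave 34, so the direction depended on single pools; the count was 44 after quantile normalization and 64 with arrays centred on their medians.

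Between genotypes on the control diet, 59 members were lower and 25 higher in POR-null than in WT mice, with a median of -0.07, against 52.7% of all probe sets below 0. At an unadjusted p under 0.05 there were 7 members, all lower: Ndufc2, Atp5g1, Cox6a1, Ndufab1, Uqcrc1, Cycs and Atp5g3. They make 8.14% of the members, against 6.79% of all probe sets in either direction and 3.11% in the lower one. The groups did not overlap for Ndufc2, Cox6a1 and Atp5g3 (3.49%, against 9.67% of all probe sets). This comparison uses the same 3 WT control arrays as that of quercetin in WT mice, so the 2 lists of lower genes are not independent. Without WT control pool 1 the median was -0.12 and 14 members were under 0.05 (16.3%, against 9.54% of all probe sets). Without WT control pool 2 there were 3 (3.49%, against 5.33%), without WT control pool 3 there was 1 (1.16%, against 3.81%), and without POR-null control pool 3 the median was -0.01 with 2 (2.33%, against 11.3%). With arrays centred on their medians 2 members were under 0.05 (2.33%, against 6.83%), and with only the 2 groups compared 3 were (3.49%, against 5.89%). The same-numbered pools of the 2 control groups deviated together (r from 0.106 to 0.260), and with the replicate number as a block in these groups alone, a fit chosen after seeing the data, 47 probe sets passed an adjusted p of 0.05 in limma. None of the 47 was a member: the smallest adjusted p among the members was 0.493, and 2 of the 86 were under an unadjusted p of 0.05 (2.33%, against 7.61%).

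On the quercetin diet 58 members were lower and 26 higher in POR-null than in WT mice, with a median of -0.03, against 51.6% of all probe sets below 0. Atp5k was the 1 member with an unadjusted p under 0.05 (1.16% of the members, against 2.39%). The groups did not overlap for 8 members (9.30%, against 6.82%), of which Atp5md, Ndufa1, Uqcrh and Ndufaf5 were higher and Ndufv2, Atp5b, Atp5g2 and Atp5k lower. Without POR-null quercetin pool 3 the median was 0.01 and 39 members were lower. In the interaction, the response to quercetin in POR-null minus that in WT mice, 54 members were above 0 (51% of all probe sets were), and Cycs was the 1 member with an unadjusted p under 0.05 (1.16%, against 4.74%). Without WT control pool 2, or without POR-null control pool 3, 45 members were below 0, while without POR-null quercetin pool 3 there were 19 and without WT control pool 1 there were 20. Averaged over genotypes, quercetin left 64 members lower (46.7% of all probe sets) and none under an unadjusted p of 0.05 (3.25%). Averaged over diets, 63 members were lower in POR-null mice (52.9%), and Ndufc2, Atp5g1 and Atp5g2 were under 0.05, all lower (3.49%, against 4.18% of all probe sets in either direction and 2.17% in the lower one). Without WT control pool 1 the last count was 10 (11.6%, against 5.86%). The count for quercetin averaged over genotypes reached 4 without POR-null control pool 3 (4.65%, against 5.79%).

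**Figure D2:**
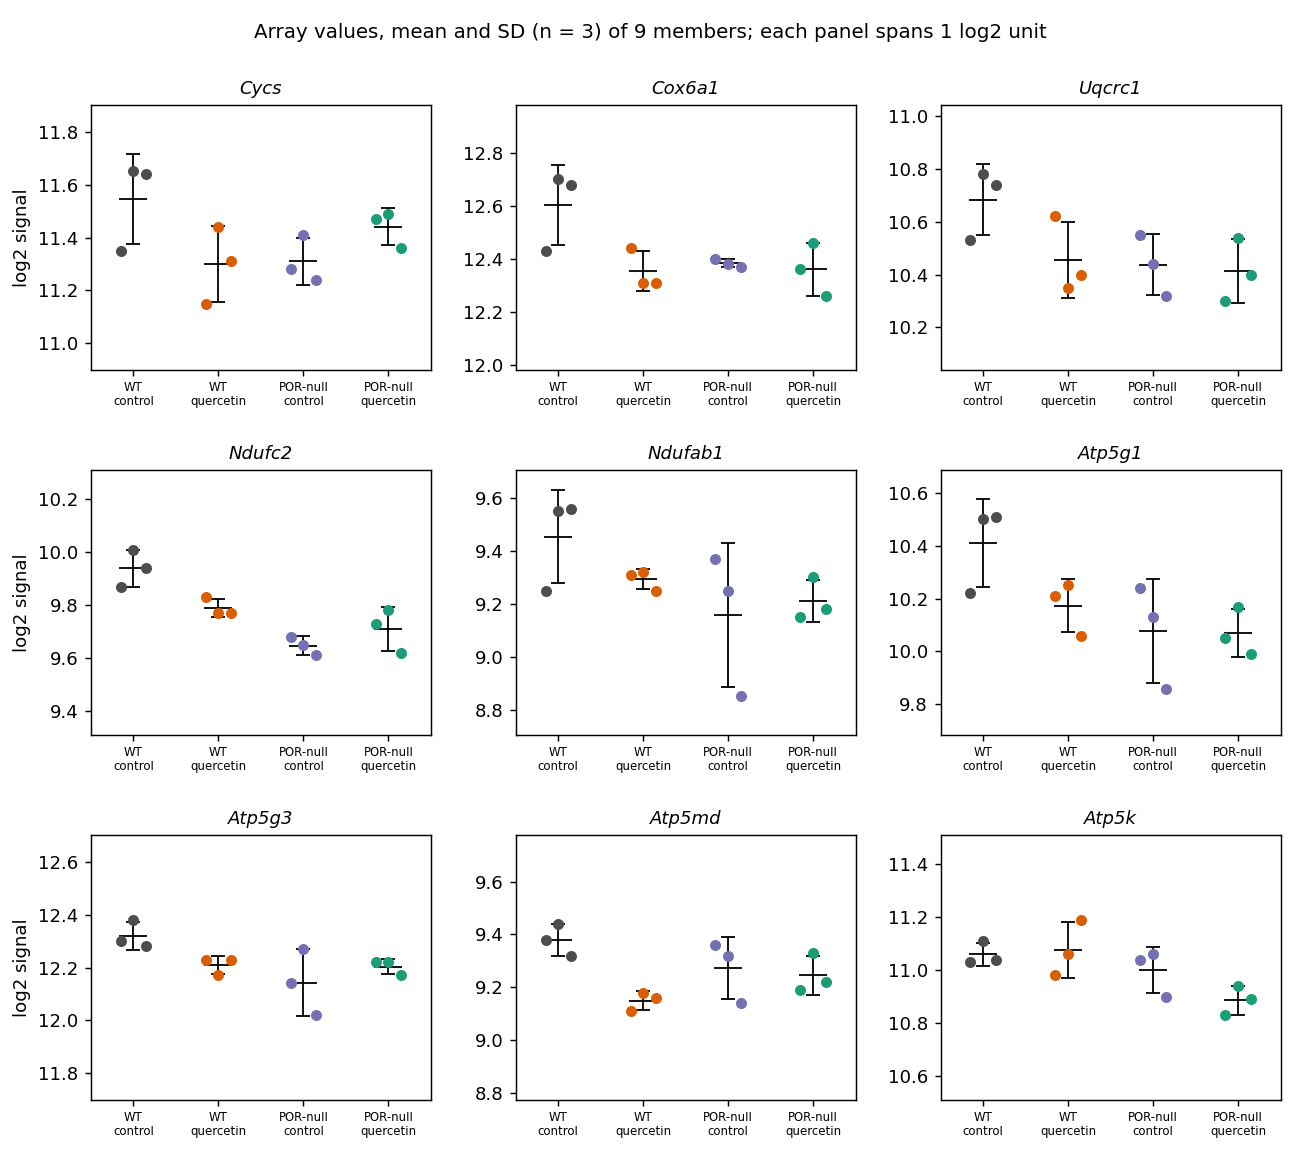
Log2 signal (y axis, 1 log2 unit in each panel) of 9 members in the 4 groups (x axis); points are arrays of pools of 3 mice, bars the mean and SD of 3 arrays. In Cycs, Cox6a1, Uqcrc1, Ndufab1 and Atp5g1, WT control pools 2 and 3 lie above every other array while WT control pool 1 lies among the other groups.

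Complex I, the NADH dehydrogenase, was read through 33 subunits. Ndufc2, an accessory subunit of the membrane arm, had the smallest p of all members between genotypes on the control diet and an SD within groups of 0.059, the lowest of the 86. It read 9.87, 10.01 and 9.94 in the WT control pools, 9.83, 9.77 and 9.77 in WT quercetin, 9.68, 9.65 and 9.61 in POR-null control, and 9.73, 9.78 and 9.62 in POR-null quercetin. The WT control pools were thus above all other arrays, and the 2 control groups did not overlap. The difference on the control diet was -0.29 (SE 0.08, adjusted p = 0.710), a change in signal of -18.4%, and averaged over diets it was -0.19 (SE 0.06, adjusted p = 0.998). Its second probe set, at a mean of 9.74, gave -0.23 on the control diet.

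Ndufab1, the mitochondrial acyl carrier protein and a complex I subunit, read 9.25, 9.55 and 9.56 in WT control and 9.37, 9.25 and 8.85 in POR-null control. Its difference of -0.30 (SE 0.13, adjusted p = 0.734) leaned on POR-null control pool 3, without which it was -0.14. In the quercetin groups Ndufab1 read 9.31, 9.32 and 9.25 in WT and 9.15, 9.30 and 9.18 in POR-null mice, a narrower spread. Among the core subunits, Ndufs8, which holds iron-sulfur clusters of the arm that takes up NADH, went the other way in WT mice: 10.09, 10.06 and 10.11 on the control diet and 10.17, 10.35 and 10.27 on quercetin, without overlap (0.18). In POR-null mice it was 10.20 ± 0.18 on the control diet and 10.09 ± 0.16 on quercetin (SD, n = 3), a difference of -0.12 that was -0.22 without POR-null control pool 3 and -0.03 without POR-null quercetin pool 3, and the interaction was -0.29 (SE 0.15, adjusted p = 0.998). Its 6 probe sets did not move as one, since 2 of them were lower by 0.16 and 0.10 in WT mice on quercetin. Ndufs4, an accessory subunit needed for the assembled enzyme, read 8.48, 8.63 and 8.49 against 8.43, 8.32 and 8.44 on quercetin in WT mice.

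The assembly factors of complex I were dim, with mean signals from 5.59 to 6.97. Ndufaf5, an enzyme that modifies a core subunit during assembly, ranged from 5.38 to 6.01, and its highest array was POR-null control pool 2. Ndufaf4 read 6.52 ± 0.11 in WT control and 6.38 ± 0.18 in WT quercetin (SD, n = 3), a difference of -0.14, and the difference was 0.13 in POR-null mice. Both are within the spread of the pools.

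Complex II, succinate dehydrogenase, stands in both the chain and the citric acid cycle. Among its 4 subunits no difference in a simple comparison exceeded 0.15. Sdha, the flavoprotein, read 9.97 ± 0.05 (SD, n = 3) in WT control, 10.01, 9.82 and 10.14 in WT quercetin, 10.04, 9.94 and 9.94 in POR-null control, and 9.93, 10.05 and 9.82 in POR-null quercetin, with overlap everywhere. Sdhb, the iron-sulfur subunit, read 10.56, 10.81 and 10.80 in WT control, and all 9 other arrays fell between 10.53 and 10.67. It differed by -0.15 (SE 0.09, adjusted p = 0.957) on quercetin in WT mice and by -0.12 between genotypes on the control diet. The membrane anchors Sdhc (9.42 to 9.76) and Sdhd (10.48 to 10.76) differed by -0.14 and -0.11 between genotypes on the control diet, and by no more than 0.07 in any other simple comparison.

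Complex III, which takes electrons from ubiquinol, had 9 members. Uqcrc1, a core protein of the complex, read 10.53, 10.78 and 10.74 in WT control, 10.62, 10.35 and 10.40 in WT quercetin, 10.55, 10.44 and 10.32 in POR-null control and 10.30, 10.54 and 10.40 in POR-null quercetin. WT control pools 2 and 3 were highest and pool 1 lay within the range of the other groups. The differences were -0.23 (SE 0.11, adjusted p = 0.957) for quercetin in WT mice and -0.25 (SE 0.11, adjusted p = 0.734) between genotypes on the control diet, but -0.02 and -0.04 in the comparisons with POR-null quercetin. Uqcrb differed by -0.18 (SE 0.08, adjusted p = 0.957) in WT mice on quercetin at 12.81 ± 0.10 against 12.63 ± 0.07 (SD, n = 3), and its second probe set by -0.04. Cyc1, cytochrome c1, which hands the electron to cytochrome c, had a narrow range, with all arrays between 10.94 and 11.13 and no simple difference beyond -0.03. Uqcrh was higher in POR-null than in WT mice on quercetin (10.58, 10.56 and 10.45 against 10.44, 10.40 and 10.39), a difference of 0.12 without overlap.

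Cycs, cytochrome c, carries electrons from complex III to complex IV and is released into the cytosol in apoptosis. It read 11.35, 11.65 and 11.64 in WT control, 11.15, 11.44 and 11.31 in WT quercetin, 11.28, 11.41 and 11.24 in POR-null control, and 11.47, 11.49 and 11.36 in POR-null quercetin. It was lower by 0.25 (SE 0.10, adjusted p = 0.957) on quercetin in WT mice and lower by 0.24 (SE 0.10, adjusted p = 0.734) in POR-null mice on the control diet. On quercetin it was higher by 0.13 in POR-null mice than on the control diet, and higher by 0.14 than in WT mice. The interaction was 0.38 (SE 0.15, adjusted p = 0.998), the largest of any member, and groups overlapped in all 4 simple comparisons. Its other 2 probe sets gave -0.07 and -0.18 for quercetin in WT mice and 0.11 and 0.17 in POR-null mice, the same signs. Without WT quercetin pool 1, its lowest array, the difference in WT mice was -0.17.

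Complex IV, the oxidase, had 16 members and several pairs of isoforms that tissues use differently. Cox6a1 read 12.43, 12.70 and 12.68 in WT control, 12.44, 12.31 and 12.31 in WT quercetin, 12.40, 12.38 and 12.37 in POR-null control, and 12.36, 12.46 and 12.26 in POR-null quercetin. Again WT control pools 2 and 3 were apart from all other arrays, while pool 1 (12.43) lay just below WT quercetin pool 1 (12.44). The difference was -0.25 (SE 0.09, adjusted p = 0.952) on quercetin in WT mice, a change in signal of -15.9%, and -0.22 (SE 0.09, adjusted p = 0.734) between genotypes on the control diet. Its second probe set gave -0.15 and -0.19. In POR-null mice quercetin left it at -0.02, and its interaction was 0.23 (SE 0.13, adjusted p = 0.998).

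**Figure D3:**
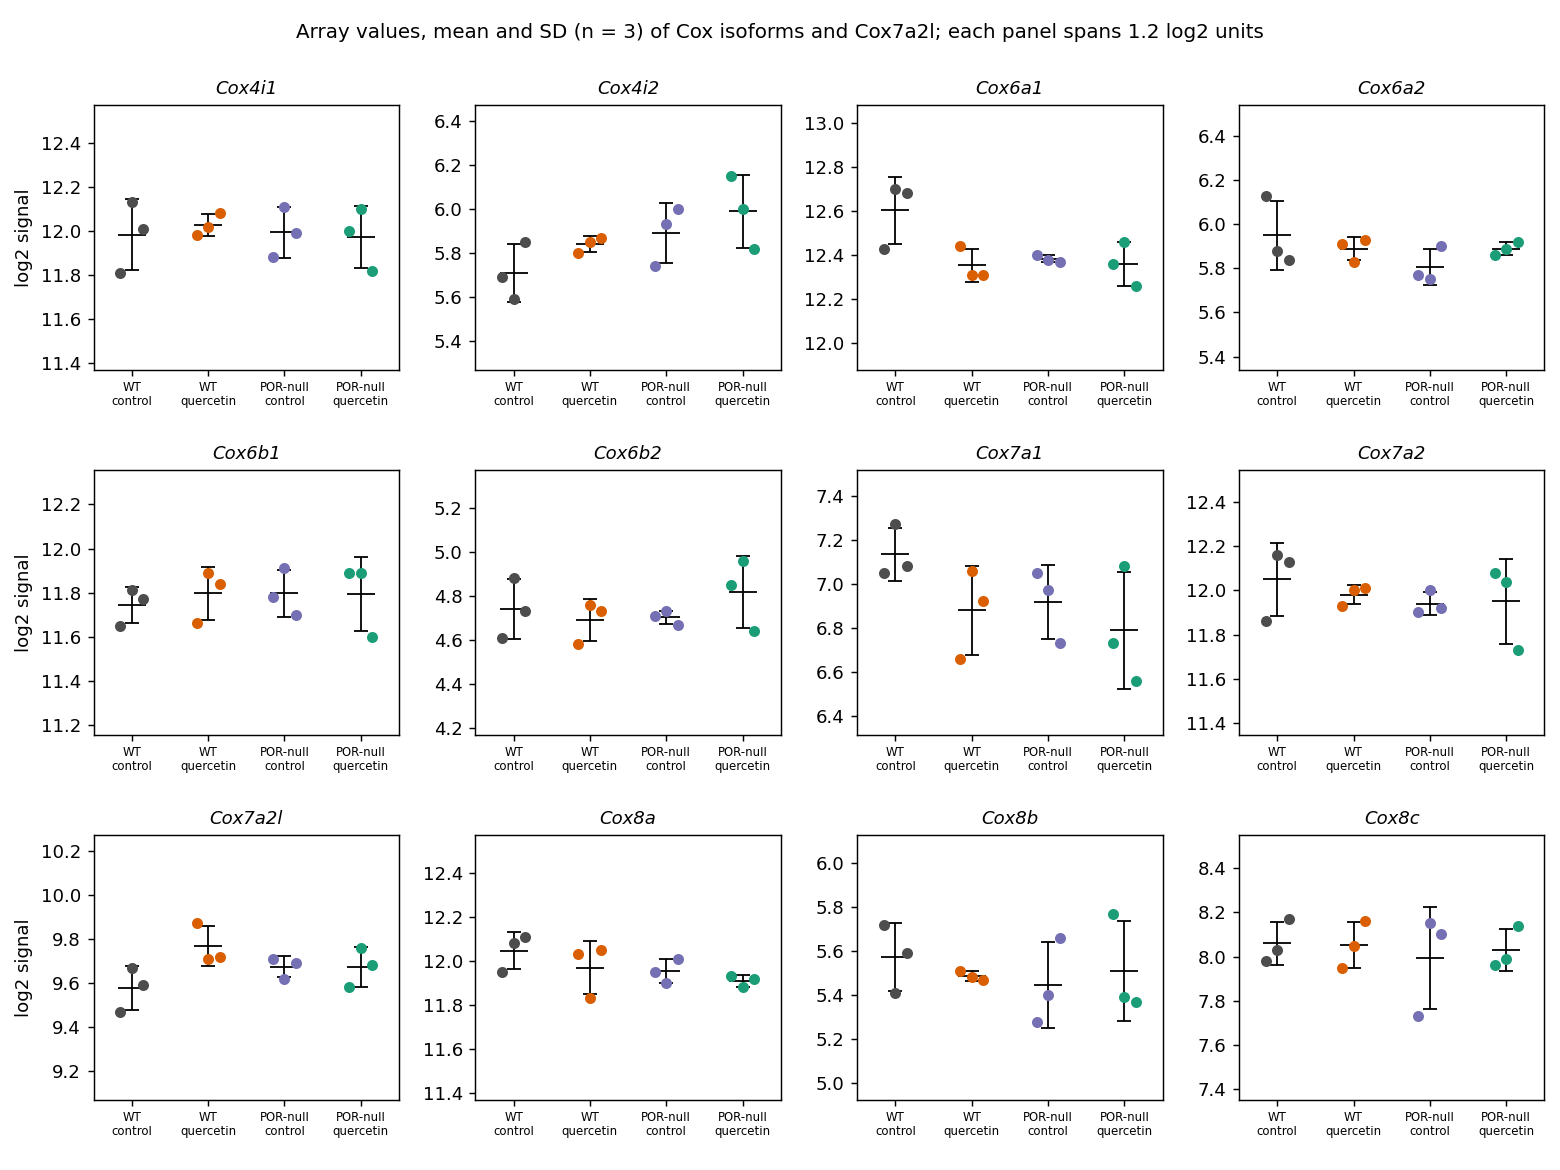
Log2 signal (y axis, 1.2 log2 units in each panel) of complex IV isoforms and Cox7a2l in the 4 groups (x axis); points are arrays, bars the mean and SD of 3 arrays. In the 4 simple comparisons groups overlap in every panel except Cox6a1 (POR-null below WT on the control diet) and Cox7a2l (higher on quercetin in WT mice).

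Each isoform of complex IV is given by its own range, since signals of different probe sets are not compared. Cox4i1, the common form of subunit IV, ranged from 11.81 to 12.13, with differences between -0.05 and 0.04. Cox4i2, the form induced by low oxygen in lung, ranged from 5.59 to 6.15 and was 0.18 (SE 0.11) higher in POR-null mice on the control diet and 0.15 (SE 0.11) higher on quercetin (adjusted p = 0.782 and 0.998). The last value was 0.07 without POR-null quercetin pool 1 and 0.23 without pool 3. Cox6a2, the heart and skeletal muscle form of subunit VIa, read 5.75 to 6.13, and Cox6b1 read 11.60 to 11.91 with no difference beyond 0.05. Cox7a1, the muscle form of subunit VIIa, read 7.05, 7.27 and 7.08 in WT control and 6.66, 7.06 and 6.92 in WT quercetin (-0.25, SE 0.15, adjusted p = 0.957). Its common partner Cox7a2 read 11.73 to 12.16 and differed by -0.11 at most. Cox8a, the common form of subunit VIII, stayed between 11.83 and 12.11, the muscle form Cox8b between 5.28 and 5.77, and the testis form Cox8c between 7.73 and 8.17. Skeletal muscle genes (Ckm, Acta1, Myh4 and 3 others) averaged 5.22 to 5.50 over the arrays. They were highest in WT quercetin pool 3, the pool of highest smooth muscle signal. The next was POR-null control pool 3 (5.44), where smooth muscle genes averaged 6.26. A link to the muscle forms of complex IV was not tested.

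Ndufa4, named for complex I but known as a complex IV subunit, had the widest spread within groups. It read 9.12, 9.39 and 9.45 in WT control, 9.49, 9.07 and 9.02 in WT quercetin, 9.51, 9.14 and 8.91 in POR-null control, and 8.93, 9.26 and 8.89 in POR-null quercetin. Each group thus spanned 0.33 or more, and no difference exceeded 0.17 (SE 0.17). Its relative Ndufa4l2 was not analysed here. Cox7a2l, which ties complexes III and IV into supercomplexes, read 9.47, 9.67 and 9.59 in WT control and 9.87, 9.71 and 9.72 in WT quercetin. That is 0.19 higher (SE 0.09, adjusted p = 0.957) with no overlap, and its other 2 probe sets gave 0.11 and 0.17. In POR-null mice it read 9.71, 9.62 and 9.69, then 9.58, 9.76 and 9.68, a difference of 0.00.

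Among the 17 subunits of the ATP synthase, Atp5g1, Atp5g2 and Atp5g3 encode subunit c, which forms the proton-driven ring. Atp5g1 read 10.22, 10.50 and 10.51 in WT control, 10.21, 10.25 and 10.06 in WT quercetin, 10.24, 10.13 and 9.86 in POR-null control, and 10.05, 10.17 and 9.99 in POR-null quercetin. Its -0.33 (SE 0.12, adjusted p = 0.710) on the control diet was the largest simple difference of all members, a change in signal of -20.6%, and the ranges still overlapped. Without POR-null control pool 3 it was -0.23, and without WT control pool 1 it was -0.43. Atp5g3 read 12.30, 12.38 and 12.28 against 12.14, 12.27 and 12.02 (-0.18, SE 0.08, adjusted p = 0.734), with no overlap. Atp5g2 read 10.83, 10.95 and 10.90 against 10.89, 10.79 and 10.70 on the control diet (-0.10), and 10.90, 10.83 and 10.96 against 10.74, 10.64 and 10.82 on quercetin (-0.16, SE 0.08, adjusted p = 0.998). The last pair did not overlap.

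Atp5md, a small subunit found on assembled synthase, read 9.38, 9.44 and 9.32 in WT control and 9.11, 9.18 and 9.16 in WT quercetin. Every quercetin pool lay below every control pool, by 0.23 on average (SE 0.09, adjusted p = 0.952). In POR-null mice the values were 9.36, 9.32 and 9.14 on the control diet and 9.19, 9.33 and 9.22 on quercetin, a difference of -0.03. Atp5k, subunit e at the dimer interface, read 10.98, 11.06 and 11.19 in WT quercetin and 10.83, 10.94 and 10.89 in POR-null quercetin. The difference was -0.19 (SE 0.08, adjusted p = 0.998) without overlap, but its other 2 probe sets gave -0.04 and 0.08. Atp5d, the delta subunit of the rotating stalk, read 11.38, 11.41 and 11.38 in WT control and 11.44, 11.65 and 11.60 in WT quercetin, 0.17 higher (SE 0.09, adjusted p = 0.957), while its second probe set gave -0.05; its interaction was -0.27 (SE 0.13, adjusted p = 0.998). The catalytic subunit Atp5b read 11.67 to 11.89 in WT control and 11.71 to 11.73 in WT quercetin; it read 11.61 to 11.68 in POR-null quercetin, just below WT quercetin.

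**Figure D4:**
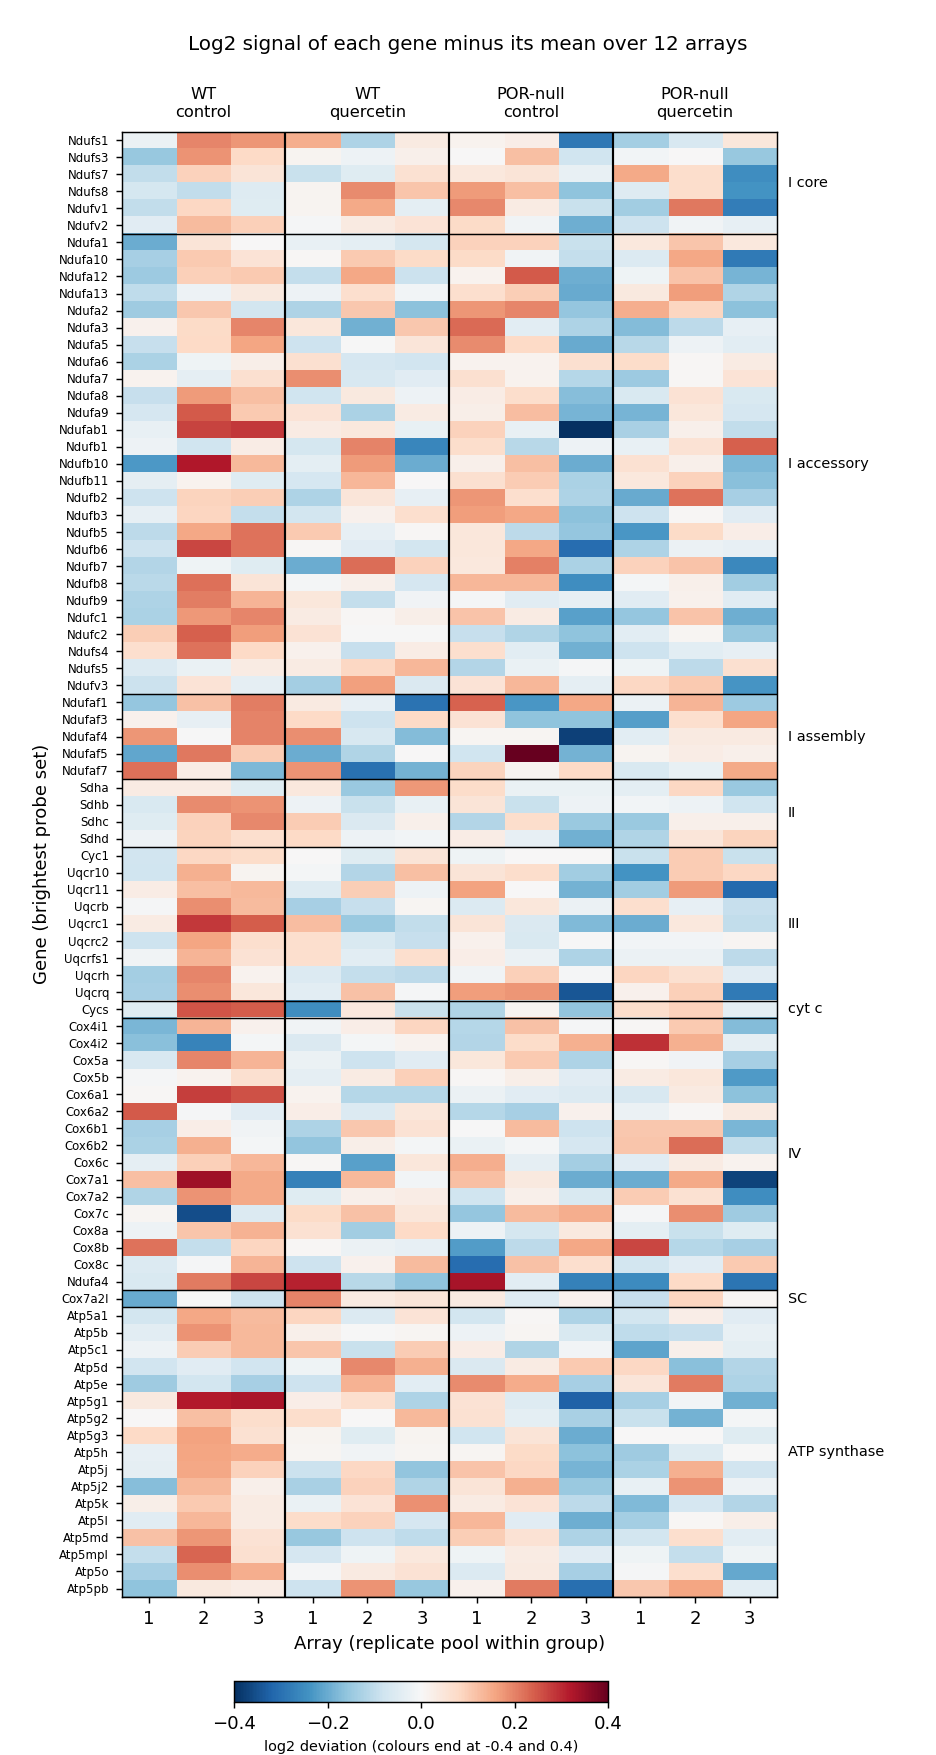
Log2 signal of each of the 86 genes (rows, by role; SC is Cox7a2l) minus its mean over the 12 arrays (columns), from blue at -0.4 to red at 0.4. Most rows share a column pattern: WT control pools 2 and 3 are red, POR-null control pool 3 is blue, and the WT quercetin columns are mixed.

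The members moved together from array to array, also within groups. In WT control pools 2 and 3 each, 69 of the 86 genes lay above their own 12-array mean, against 20 in WT control pool 1. The counts were 44, 41 and 45 in the WT quercetin pools, 59, 55 and 12 in POR-null control, and 26, 62 and 20 in POR-null quercetin. Of all probe sets, 42.4% to 55.3% lay above their own mean on any array, and the members' shares lay inside that range on the 3 WT quercetin pools and outside it on the other 9 arrays. The median deviation of the members was -0.06, 0.12 and 0.08 in WT control and 0.04, 0.03 and -0.13 in POR-null control, a span within these groups of 0.183 and 0.165. The means of these medians over the groups were 0.04 in WT control, 0.00 in WT quercetin, -0.02 in POR-null control and -0.02 in POR-null quercetin. The pools spanned 0.115 within POR-null quercetin and 0.006 within WT quercetin. A mean of 3 arrays varies less than single arrays do, so these means and spans are unlike measures and their sizes were not compared. The first principal component of the members' values held 43.0% of their variance, with 76 of 86 genes on the same side. Its highest scores were WT control pools 2 and 3 (1.32 and 0.92) and its lowest POR-null control pool 3 (-1.36).

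**Figure D5:**
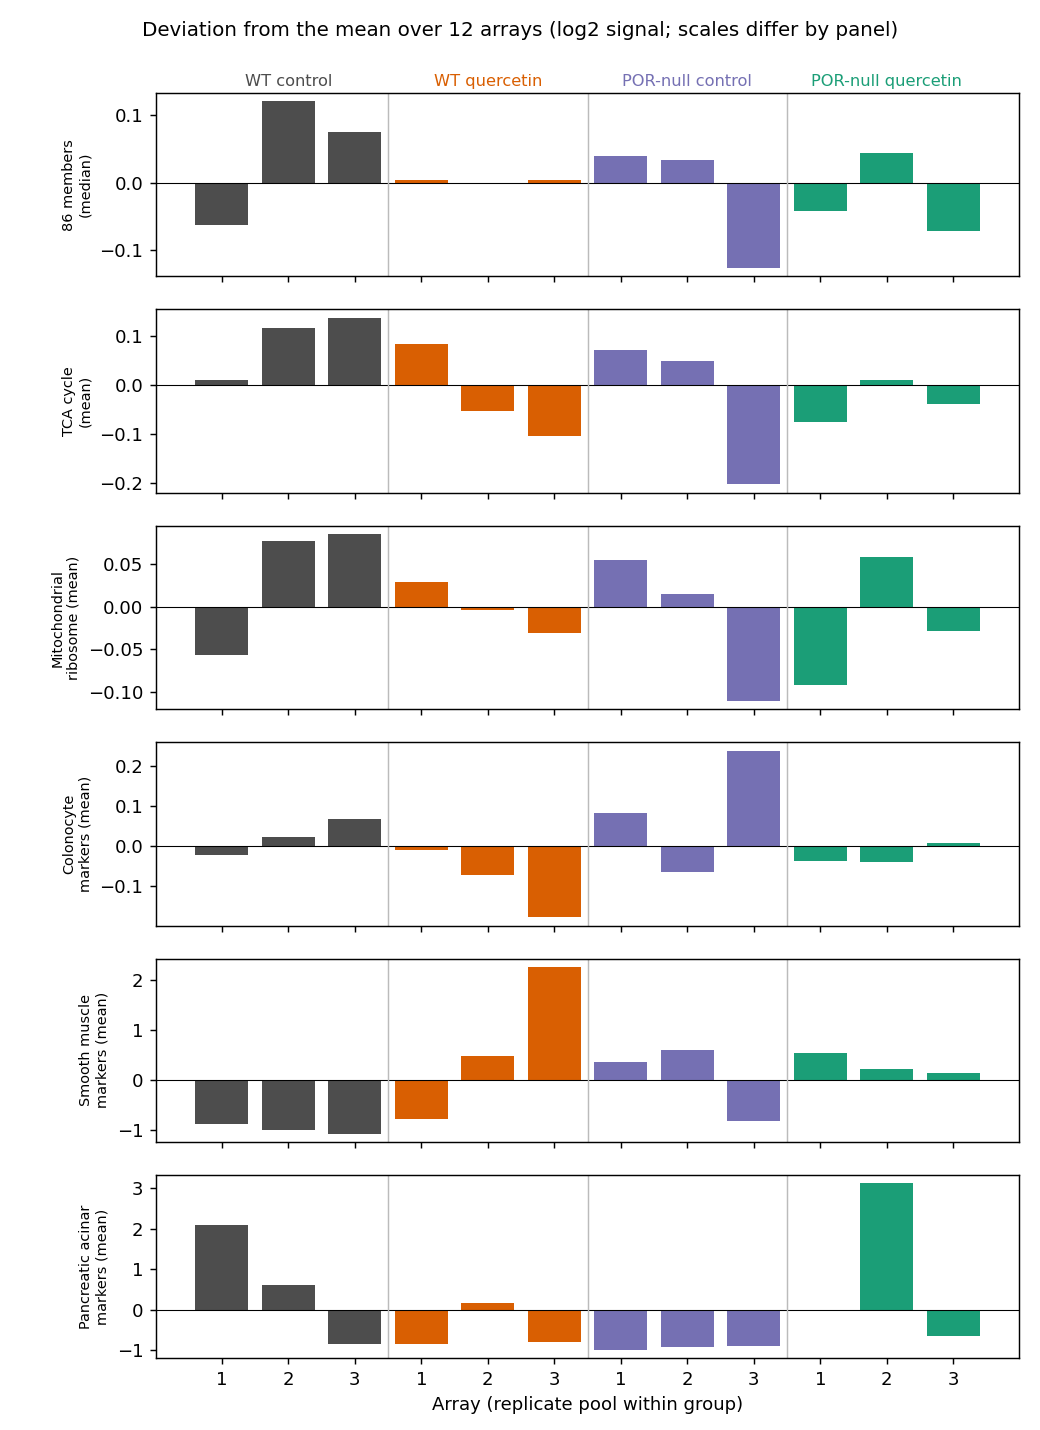
Deviation from the mean over 12 arrays in log2 signal (y axes, scales differ) for each array (x axis, coloured by group): median of the 86 members, and means of the citric acid cycle, mitochondrial ribosome, colonocyte, smooth muscle and pancreatic acinar lists. POR-null control pool 3 is lowest in the upper 3 panels and highest for colonocyte markers; the acinar peaks fall on 1 array where the members were low and 1 where they were high.

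Other gene lists gave the following values on the arrays with the highest and lowest counts and on both arrays of high acinar signal. In POR-null control pool 3, where 12 members lay above their mean, the 8 colonocyte markers deviated by 0.24, smooth muscle by -0.83 and acinar markers by -0.90. In WT control pools 2 and 3, where 69 did, colonocyte markers deviated by 0.02 and 0.07, smooth muscle by -1.01 and -1.08, and MHC class II by -1.13 and -1.36. Acinar markers deviated by 2.09 in WT control pool 1, with 20 members above, and by 3.12 in POR-null quercetin pool 2, with 62 above. The part of these cells in the members' movement was not tested.

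Differences read at probe sets of 1 gene often disagreed in sign. Of the 86 genes 46 had more than 1 probe set, up to 6, and 40 had more than 1 above a mean signal of 6. Within these 40 genes probe sets differed in sign in 17 genes for quercetin in WT mice, 17 in POR-null mice, 24 between genotypes on the control diet and 19 on quercetin. The median gap between probe sets of a gene was 0.07 to 0.10, and the largest was 0.34 (Ndufs8). The members' own differences had a median size of 0.075 for quercetin in WT mice and 0.093 between genotypes on the control diet. In 0 genes did opposite signs come with a gap over 0.5, a limit that differences this small could hardly reach, so that count does not show agreement. Cox6a1, Cycs, Cox7a2l and Ndufc2 kept 1 sign over their probe sets for quercetin in WT mice. As 17 of the 40 genes differed in sign there, keeping 1 sign was common and does not set these genes apart.

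Genes that build or feed the chain were read from lists of their own, and none passed an adjusted p of 0.05. Of 29 assembly factors measured, 20 were lower and 8 higher in WT mice on quercetin, and 22 were lower and 7 higher in POR-null mice on the control diet. For this list and those that follow, 48.8% and 52.7% of all probe sets were below 0 in these comparisons, which share the WT control arrays. Sco2, a copper chaperone of complex IV, had the largest difference: it read 6.85, 7.01 and 6.75 in WT control, 6.13, 6.44 and 6.29 in WT quercetin, 6.60, 6.39 and 6.39 in POR-null control, and 6.45, 6.64 and 6.38 in POR-null quercetin. WT control lay above all other arrays. It was lower by 0.58 (SE 0.12, adjusted p = 0.624) on quercetin in WT mice and by 0.41 (adjusted p = 0.710) in POR-null mice on the control diet, with an interaction of 0.61 (SE 0.16, adjusted p = 0.998). Uqcc1, which assists the assembly of complex III, differed by -0.29 (SE 0.10, adjusted p = 0.710), and Ecsit, a complex I assembly factor, by -0.28 between genotypes on the control diet.

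The citric acid cycle and pyruvate dehydrogenase, which supply NADH and succinate, had 15 of 17 genes lower and 2 higher in WT mice on quercetin, with a median of -0.12. The same counts were found between genotypes on the control diet, with a median of -0.16; both use the WT control arrays. Suclg2 was the 1 gene under an unadjusted p of 0.05 in the first (-0.25, adjusted p = 0.957), 5.88% of the list against 5.15% of all probe sets. In the second Idh3a was lower by 0.29 and Pcx higher by 0.46 (adjusted p = 0.734 for each), 11.8% of the list against 6.79%. In POR-null mice on quercetin 10 were higher and 7 lower. A further 8 genes reduce ubiquinone apart from complexes I and II. In POR-null mice on the control diet 5 of these were lower and 3 higher (median -0.09). Prodh, Etfdh and Etfa, which feed in electrons from proline and fatty acids, were lower by 0.35, 0.34 and 0.29 (adjusted p = 0.712, 0.718 and 0.719). These were the 3 under an unadjusted p of 0.05, 37.5% of the list against 6.79% of all probe sets. Coq4, needed to make ubiquinone, was lower by 0.34 (SE 0.12, adjusted p = 0.712) in that comparison, as 1 of 6 lower genes of 9. The 74 genes of the mitochondrial ribosome had 47 lower and 27 higher in WT mice on quercetin (median -0.03) and 48 lower and 25 higher in POR-null mice on the control diet (median -0.04).

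Regulators of mitochondrial biogenesis, such as Ppargc1a, Nrf1 and Esrra, were evenly split: 11 of 19 higher and 8 lower on quercetin in WT mice, and 9 each way between genotypes on the control diet. Tfb1m, an rRNA methyltransferase of mitochondria, was higher by 0.20 in WT mice on quercetin (adjusted p = 0.957) and lower by 0.28 in POR-null than in WT mice on quercetin (adjusted p = 0.998), at a low signal of 4.11 to 4.57. Of the 20 genes of inner membrane organisation and protein import, 15 were lower on quercetin in WT mice, and Immt, a scaffold of the cristae, had an interaction of 0.33 (SE 0.13, adjusted p = 0.998). Of 8 carriers 6 were lower and 2 higher on quercetin in WT mice (median -0.05). Under an unadjusted p of 0.05 was 1 (12.5%, against 5.15% of all probe sets), the muscle form of the ADP/ATP carrier, Slc25a4. Slc25a4 read 6.82, 6.49 and 6.24 in WT control and 6.99, 7.05 and 8.23 in WT quercetin (0.91, SE 0.29, adjusted p = 0.952). Its highest array, WT quercetin pool 3, also had the highest smooth muscle signal (9.35), and that link was not tested. The other common form, Slc25a5, differed by -0.13 (SE 0.08, adjusted p = 0.957).

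Cytosolic ribosomal genes, another set of bright transcripts, tilted the other way. Of 50 genes caught by symbol, which include a few kinases and muscle forms with Rps or Rpl names, 42 were higher on quercetin in WT mice (median 0.09) and 40 in POR-null mice on the control diet (median 0.09), with 4 and 3 under an unadjusted p of 0.05, all higher (3.2% and 3.68% of all probe sets). Rps15 read 11.29, 11.20 and 11.06 in WT control and 11.44, 11.59 and 11.42 in WT quercetin, 0.30 higher (SE 0.10, adjusted p = 0.952) without overlap. In POR-null mice on quercetin 22 were higher and 28 lower.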

How the data were processed

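RNA of the scraped colon epithelium, pooled from 3 mice per array, was measured on 12 Affymetrix 430A arrays. The deposited values were used as they stand and were taken to be log2 signals; MAS5 and RMA appear in the submitters' processing notes, but what each was used for is not stated there. The table held 22690 probe sets, of which 64 controls were left out. Group means were compared in R 4.3.3 with limma 3.58.1 (lmFit, eBayes with trend), all 12 arrays in 1 fit with 4 group means and 7 contrasts, with two-sided p-values under Benjamini-Hochberg adjustment across 22626 probe sets and a threshold of 0.05. The fit was tested on simulated data, with planted changes larger than any difference of the members and with probe sets that varied independently. That test therefore does not cover differences as small as these, or genes that move together. The labels do not state whether arrays shared a day or batch, so p-values measure the spread between these pools. Genes were named from the array annotation and promoters from RefSeq.

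Named in the text are, for each contrast, the members past the threshold or else the 5 of smallest p, the isoform pairs, complex II, Cycs, Cyc1, the 5 of largest spread, the 3 highest and 3 lowest, and up to 3 genes of each other list; Ndufaf4 and the members whose groups did not overlap were added after their values were seen. The members and lists were chosen with earlier results of these data known. Same-numbered arrays were checked for pairing: of 18 pairs of deviations 6 had a correlation over 0.1 (range -0.192 to 0.260), and these include all 3 pairs of WT control with POR-null control (0.106 to 0.260) but not all pairs of any other 2 groups. A block within these 2 groups was therefore added after seeing the data, and its values stand beside that comparison. Alternatives changed the normalization, dim probe sets, samples, variance prior, array weights and single arrays.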

Additional observations from a re-analysis of the deposited data

How the results depend on the processing

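Of 972 recomputed values 954 were counted as unchanged: differences of the 5 members of smallest p in each comparison that kept their sign and side of the threshold, counts within 1.5 times, and medians over the members that moved by less than 0.0733, the SD of that median between arrays. This limit passes small medians that turn: of 145 recomputed medians 6 changed sign, all without 1 array, for quercetin in POR-null mice (3, up to 0.01), between genotypes on quercetin (1) and in the interaction (2). No difference of these 5 members changed sign in any comparison. They were picked for a small p in these same arrays, so a turned sign was unlikely from the start, and they gave 689 of the 972 values. The other named members were not recomputed in this way. No member passed the threshold under any alternative except array weights, where Ndufc2 did between genotypes on the control diet (-0.30, adjusted p = 0.042, limma). Array weights gave 399 probe sets past the threshold in that comparison and 2 for quercetin in WT mice, against 0 in each; the cause was not tested. The weights ran from 0.450 for POR-null control pool 3 to 2.72 for POR-null control pool 2. Without both arrays of highest acinar signal, chosen after seeing the data, 46 probe sets passed between genotypes on the control diet, 0 of them members; members lower numbered 69 for quercetin in WT mice, 65 in POR-null mice, 68 between genotypes on the control diet and 65 on quercetin. With only the 2 groups compared, 1 probe set passed between genotypes on quercetin. The replicate number as a block over all 4 groups also gave 1 there, and as a block within the 2 control groups alone it gave 47 on the control diet, with no call of a member changed by either. Leaving out 1 array at a time gave 0 to 3 probe sets for quercetin in WT mice (3 without WT quercetin pool 1), 0 to 1 in POR-null mice (without POR-null quercetin pool 1), 0 to 41 between genotypes on the control diet (41 without WT control pool 1), 0 to 1 on quercetin, 0 to 1 in the interaction, 0 to 1 for quercetin averaged over genotypes and 0 to 2 for genotype averaged over diets, with 0 members among them. Centring arrays on their medians moved the share of higher probe sets under an unadjusted p of 0.05 for quercetin in WT mice from 62.2% to 49.3%, and on the quercetin diet between genotypes from 43.3% to 60.1%; averaged over genotypes it moved from 51.7% to 34.1% for quercetin, and over diets from 48.2% to 64.2% for genotype. Quantile normalization gave 54 lower members and 7 under an unadjusted p of 0.05 for quercetin in WT mice, 5 of these lower (8.14%, against 5.41% of all probe sets). Dim members such as Cox6b2, Cox7c and Cox8b lie where background can hide a difference.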

Other observations

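The 8 probe sets that name a member together with a second gene were read apart, since their signal cannot be given to 1 gene. For the 2 probe sets shared by Ndufb4, Ndufb4b and Ndufb4c, both at a mean near 9, the differences of POR-null from WT mice on the control diet were -0.22 and -0.13. The one shared by Ndufab1 and Ndufab1-ps gave -0.17 in the same comparison. The one shared by Ndufs6 and Ndufs6b gave -0.07, and that of Ndufa11 and Ndufa11b gave -0.05. None of the 8 passed an adjusted p of 0.05 in any contrast.

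Brown adipocyte markers averaged 4.81 to 5.09 in WT control, 5.22 to 5.96 in WT quercetin, 4.91 to 6.14 in POR-null control and 4.98 to 5.48 in POR-null quercetin, with Ucp1, the uncoupling protein of brown fat, between 4.77 and 5.12 on all arrays. Of the 5 genes measured, 3 were higher and 2 lower on quercetin in WT mice. Adipoq and Fabp4, which mark fat of any kind, ranged widely over the arrays (3.90 to 7.27 and 3.53 to 7.57), while Cidea lay between 5.10 and 5.49.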
